A study of Homo sapiens with 12 samples.

Results

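NFKB2, IRAK1, SOCS3, CCL22 and CCL5 are 5 genes of macrophage inflammatory signalling. They were followed through every called m7G peak region that overlapped their RefSeq gene bodies by at least 1 base. This gave 11 regions of the 9958 in the deposited table, 3 in NFKB2, 2 in IRAK1, 2 in SOCS3, 3 in CCL22 and 1 in CCL5. The data were m7G meRIP-seq, in which RNA fragments that carry 7-methylguanosine (m7G) are pulled down with an antibody and sequenced beside untreated RNA. The 12 libraries were all of THP-1, a monocytic leukemia line of human origin, made adherent with the phorbol ester PMA at 100 ng/ml for 48 h, and from polyadenylated RNA. The control cells, labelled NC, and cells with a short hairpin against METTL1 (shMETTL1), labelled KD, each gave 3 IP libraries, the immunoprecipitate, and 3 IN libraries, taken here as the input. No clone, batch or culture was named, so the p-values measure the spread between these libraries, which may be technical.

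Signals from Toll-like and interleukin-1 receptors run through the kinase IRAK1 to NF-kB, a family of transcription factors. NFKB2 encodes p100, the precursor that is cut to p52 in the non-canonical arm of that pathway. SOCS3 is a feedback inhibitor of cytokine receptors that signal through JAK and STAT proteins. CCL22 and CCL5 are secreted chemokines: CCL22 is made by macrophages and dendritic cells and acts through CCR4, and CCL5 recruits T cells and monocytes. METTL1 works with WDR4 to place m7G in RNA.

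The regions lay at different places along the genes (GRCh38, introns included). Those of NFKB2 (gene ID 4791, chromosome 10, 102394110 to 102402529, plus strand) were chr10:102398508-102399278 of 771 bases and chr10:102399337-102399427 of 91 bases, both from the KD peak set, and chr10:102398508-102399397 of 890 bases from the NC set. The last overlapped both others near the middle of the gene, so its reads are partly theirs and the 3 values are not independent. IRAK1 (gene ID 3654, chromosome X, 154010507 to 154019902, minus strand) had chrX:154011435-154011916 of 482 bases in the NC set and, inside it, chrX:154011495-154011856 of 362 bases in the KD set, 87.6% along the gene from its 5′ end.

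SOCS3 (gene ID 9021, chromosome 17, 78356778 to 78360925, minus strand) had a peak of 91 bases in the KD set, chr17:78357074-78357164, 91.8% along the gene. Its NC peak of 210 bases, chr17:78358559-78358768, lay 54.5% along. CCL22 (gene ID 6367, chromosome 16, 57357909 to 57366189, plus strand) had an NC peak of 181 bases, chr16:57364551-57364731, and KD peaks of 121 and 269 bases, chr16:57365057-57365177 and chr16:57365266-57365534. The single CCL5 region (gene ID 6352, chromosome 17, 35871491 to 35880360) was an NC peak of 459 bases, chr17:35880305-35880763. Only 56 of its bases (12.2%) lay inside CCL5, at one end of the gene, and all of it lay inside the long non-coding RNA LOC105371745. Its values therefore cannot be given to CCL5 alone. Exons and UTRs were not separated, since no exon positions were used here.

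The 3 NFKB2 and both IRAK1 regions overlapped a peak of the other set, 4 of them by at least 50% of both peaks, and the SOCS3, CCL22 and CCL5 regions did not. Over the whole table of 9958 peaks such sharing held for 39.1%, and the median length was 182 bases.

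**Figure D1:**
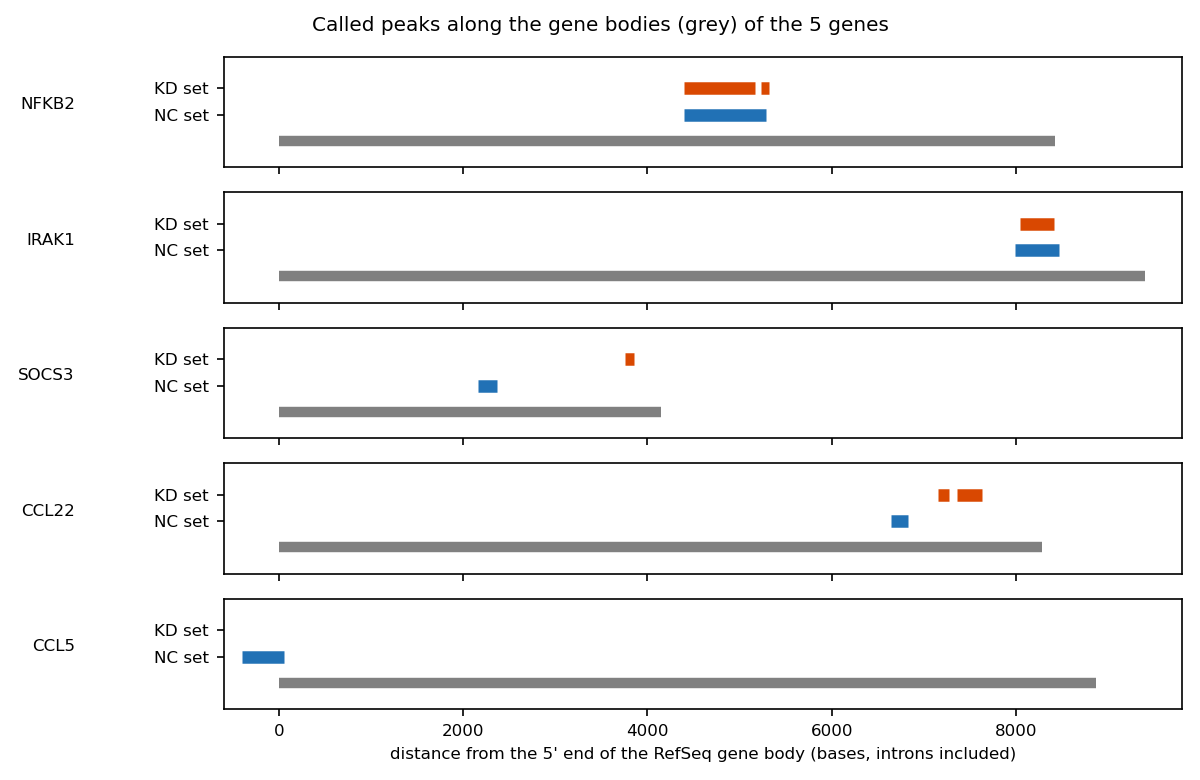
Called peaks of the KD set (orange) and the NC set (blue) along each gene body (grey), as distance in bases from the 5′ end, introns included and all rows to the same scale (for CCL5, whose strand was not listed, on the strand of the peak). The NFKB2 and IRAK1 peaks of both sets coincide, the SOCS3 and CCL22 peaks of the sets lie apart, and the CCL5 peak reaches only 56 bases into the gene.

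The promoters of the members were read for the decameric consensus of NF-kB. This was done after CCL22, NFKB2 and a SOCS3 region were seen to be higher in knockdown input (values are given with that comparison). In RefSeq GRCh38.p14, 4 of the 5 genes had an entry, with 7 annotated starts between them. In the 250 bases before each start, CCL22 had 1 match and NFKB2 had matches before 2 of its 3 starts. The matches are shown in capitals with 10 bases on each side, 5′ to 3′ on the plus strand.
CCL22, chr16:57358588-57358617: agagttgaggGGGGGTCCCCtctgagtggt
NFKB2, chr10:102394461-102394490: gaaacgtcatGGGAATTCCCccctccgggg
NFKB2, chr10:102394490-102394519: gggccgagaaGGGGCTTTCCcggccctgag
NFKB2, chr10:102395519-102395548: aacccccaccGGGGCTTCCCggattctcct
NFKB2, chr10:102395674-102395703: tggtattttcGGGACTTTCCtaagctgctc
The CCL22 match began 185 bases before its start. The NFKB2 matches began 107 and 78 bases before the second start and 176 and 21 bases before the third, and a further match overlapped the first of these by all but 1 base. Both strands were searched, and 5.21% of the 35116 promoter windows in the table held a match. That share was not matched for GC content. GC was 68.4% in the 2 NFKB2 windows with a match and 51.2% in that of CCL22. It was 58.4% to 82.4% in the member windows without a match, and the median of all windows was 58.0%. The windows of IRAK1 and SOCS3 and that of the first NFKB2 start had none. The STAT element TTCNNNGAA, present in 6.57% of windows, was in none of the 7. A match is a description of letters and no measure of binding, and its relation to the knockdown differences was not tested.

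The IN libraries had 907024 to 1105477 reads in peak regions and the IP libraries 1476384 to 1888972, which is not their sequencing depth. Levels in CPM (read counts divided by the TMM-scaled total of the tested regions) are therefore relative to the other peak regions. METTL1 and WDR4 had 0 regions, so the knockdown itself was not measured here. Of 28 monocyte and macrophage markers 10 had a region, among them LAPTM5, CYBB and CD68, and their summed level was 977 to 1075 CPM in NC IN and 1763 to 1898 CPM in KD IN. The IP libraries had 726 to 873 CPM in NC and 1290 to 1388 CPM in KD. The defining markers LYZ and ITGAM had group means of no more than 3.30 CPM. Of 25 epithelial, neuronal and embryonic kidney genes 13 had a region, with a sum of 7286 to 8007 CPM in NC IN and 327 to 357 CPM in KD IN, and of 6361 to 7313 CPM in NC IP and 243 to 256 CPM in KD IP. The neurofilament gene NEFM held 5483 CPM of this in NC IN and 1.59 CPM in KD IN, and KRT18 and LIN28B were at 0 reads in KD IN. Of the 17 tested regions of this list 13 were lower in KD IN and 3 higher, among them NEFH, which went from 137 CPM in NC IN to 296 CPM in KD IN and held most of the KD sum. The NC libraries thus held transcripts that their label does not name. Of 13 lymphoid markers CD4 alone had a region (0 to 4.62 CPM in NC IN), 3 of 8 fibroblast markers had one, and 0 of 8 erythroid markers. The part of these marker shifts in any difference between KD and NC given here was not tested.

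The first comparison asked whether the members' RNA differed between knockdown and control input. The CCL22 region of 269 bases was 3.53-fold higher in KD, NFKB2 was 1.38- and 1.44-fold higher in 2 of its 3 regions, and the SOCS3 region of 210 bases had reads in KD IN and none in NC IN. The IRAK1 regions and the CCL5 region did not pass the test. In all, 4 of the 9 tested member regions passed as higher at an adjusted p under 0.05, beside 17.9% of the 5113 tested regions. None passed as lower in edgeR, beside 21.9% of tested regions, with 0 at an unadjusted p under 0.05 and 0 in DESeq2. Both SOCS3 regions passed the filter on low counts mainly through the groups in which they are high, so their calls are a description. Without them, 3 of 7 member regions were higher, of which 2 were NFKB2 regions that overlap and share reads. In bulk RNA, fewer cells of a type and less RNA per cell cannot be told apart.

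For IRAK1, the kinase that carries the receptor signal, the 482-base region had 141, 199.6 and 180.3 CPM in the NC IN libraries and 198, 177 and 166 CPM in the KD IN libraries. The ranges of the groups overlapped almost fully. The difference was 0.06 ± 0.16 log2 (SE; edgeR adjusted p = 0.80), with a 95% interval from -0.27 to 0.39. The nested 362-base region, with 116 ± 9.67 CPM (SD, n = 3) in NC IN and 118 ± 8.69 CPM in KD IN, differed by 0.03 ± 0.17 (adjusted p = 0.91; interval -0.32 to 0.38). A change of more than about 0.4 on the log2 scale in either direction lies outside both intervals.

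For NFKB2, the 890-base region had 184, 135 and 119 CPM in NC IN and 215, 217 and 174 CPM in KD IN. The lowest KD library lay just under the highest NC library. KD was higher by 0.46 ± 0.18 log2 (edgeR adjusted p = 0.040; interval 0.10 to 0.83). The 91-base region had 145, 126 and 76.3 CPM in NC IN and 183, 165 and 151 CPM in KD IN. Here the groups did not overlap, and KD was higher by 0.52 ± 0.19 log2 (adjusted p = 0.029; interval 0.13 to 0.91). The 771-base region, at 89.6 ± 21.3 CPM in NC IN and 114 ± 21.8 CPM in KD IN (SD, n = 3), differed by 0.34 ± 0.21 log2 and did not pass (adjusted p = 0.21). The NFKB2 calls were lost when some single libraries were left out. The 890-base region gave 0.47 log2 without NC IN replicate 2 (adjusted p = 0.064), 0.33 without NC IN replicate 3 (0.18), 0.42 without KD IN replicate 1 (0.10) and 0.43 without KD IN replicate 2 (0.10). The 91-base region gave 0.29 without NC IN replicate 3 (adjusted p = 0.19), 0.45 without KD IN replicate 1 (0.094) and 0.55 without KD IN replicate 2 (0.052). Of these, the values without NC IN replicate 3 were the lowest in both regions.

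SOCS3 was at low counts. The 210-base region held 0 reads in each NC IN library and 1, 21 and 16 reads in the KD IN libraries. A single KD library had nearly as few reads as the control, and the other two held almost all of them. Over the groups, 38 reads against 0 put KD at least 11.2-fold higher, with a floor of 3 counts over the NC group (edgeR adjusted p = 0.0022). That bound was 7.11 without NC IN replicate 1, 7.81 without replicate 2 and 7.50 without replicate 3, and 16.4, 7.77 and 9.43 without KD IN replicates 1, 2 and 3. The 91-base region held 0, 0 and 3 reads in NC IN and 9, 4 and 0 in KD IN, a ratio of 3.84 with a counting interval of 1.05 to 21.0, and did not pass (adjusted p = 0.20). Without NC IN replicate 3, which held all the control reads, it passed (adjusted p = 0.039). Counting error is all that these intervals and floors cover, as the reads carry no molecular identifiers.

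For the chemokine CCL22, the 269-base region had 27.2, 51.8 and 32.4 CPM in NC IN (26, 41 and 28 reads) and 115, 120.4 and 154 CPM in KD IN (113, 126 and 142 reads). Every KD library lay far above the highest NC library. The difference was 1.82 ± 0.24 log2 (edgeR adjusted p = 9.6e-07), or 3.53-fold with an interval of 2.51 to 4.95, and it passed without any single library (1.63 to 2.18 log2). The 16 tested regions of the macrophage markers ranged from 0.49 to 1.39 log2 in the same contrast, with a median of 0.83, so the CCL22 value stood above all 16, and the called NFKB2 values stood just below and just above the lowest of them. Whether the members differ from those markers was not tested. For CCL5, the region at the gene's end had 10.5, 48.0 and 26.6 CPM in NC IN and 26.4, 22.0 and 20.7 CPM in KD IN. The KD values lay inside the wide NC range, and the difference of -0.28 ± 0.45 log2 did not pass (adjusted p = 0.66; interval -1.20 to 0.65).

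**Figure D2:**
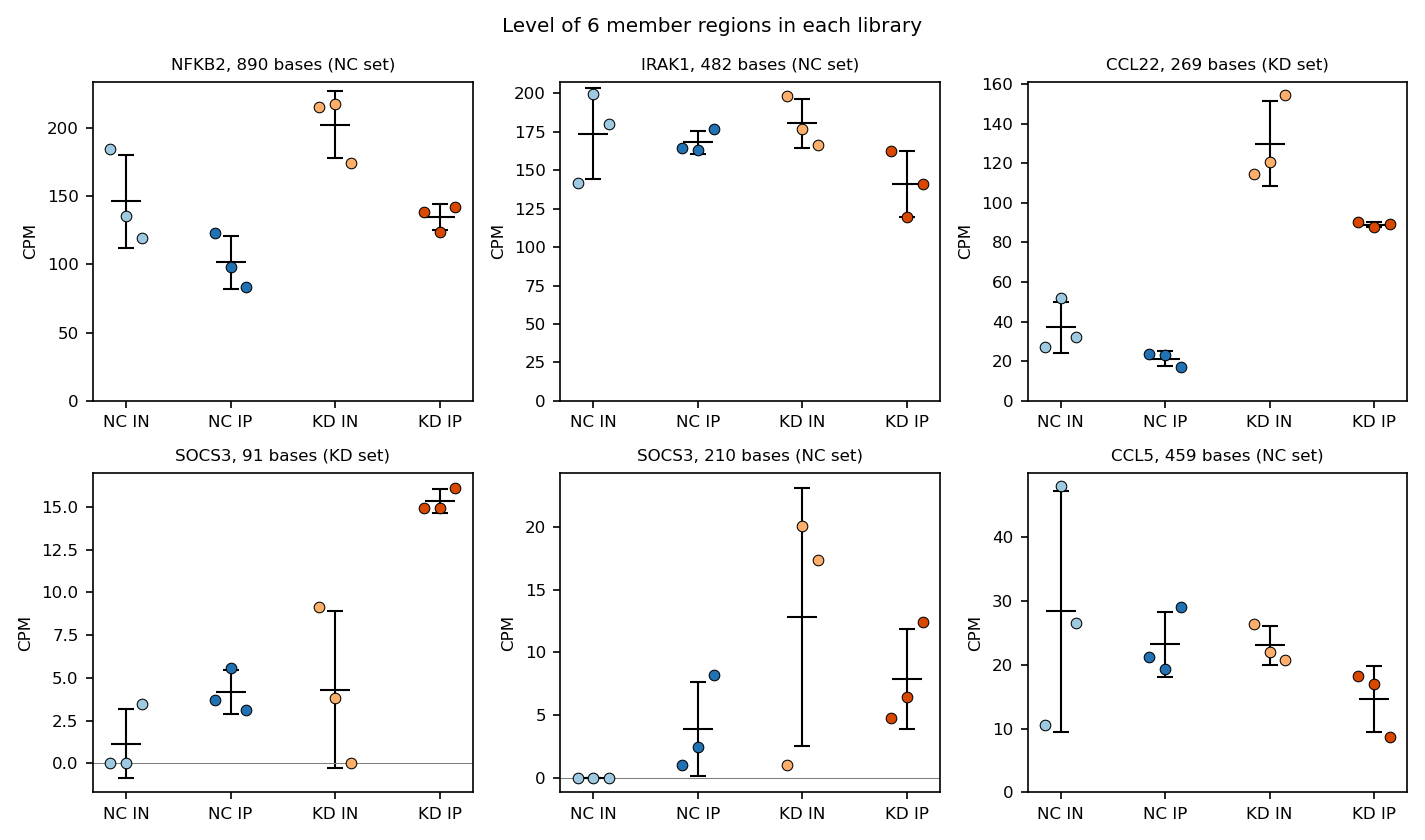
Level in CPM of 6 member regions in each library (points), with the mean and SD of the 3 libraries of each group (bars), for control (NC) and knockdown (KD) input (IN) and immunoprecipitate (IP). In the CCL22 panel all KD points lie above all NC points, in the IRAK1 panel the input groups overlap, and in the SOCS3 panel for 210 bases all NC IN points are at 0.

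Per 1000 bases of region, the level in NC IN was 1272 ± 388 CPM per kb (SD, n = 3) in the 91-base NFKB2 region, against 164 ± 38.2 in the 890-base and 116 ± 27.7 in the 771-base region of the same gene. The 890-base region overlaps both of the others and shares reads with them, and a region's length may include introns, so this scale was not used to order the genes. The IRAK1 regions stood at 361 ± 61.5 and 320.1 ± 26.7 CPM per kb, the CCL22 region at 138 ± 48.2, the CCL5 region at 61.8 ± 41.0, and the SOCS3 regions at 12.7 ± 22.0 (91 bases) and 0 (210 bases). In KD IN the CCL22 region stood at 483 ± 79.7 CPM per kb. It went from above 49.8% of tested regions in NC IN to above 75.4% in KD IN.

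The same question was put to the immunoprecipitates, which combine a region's RNA level and its pull-down. CCL22, the 91-base NFKB2 region and the 91-base SOCS3 region were higher in KD, and the IRAK1 and CCL5 regions did not pass. This made 3 of the 9 tested member regions higher, beside 20.9% of all tested regions, and 2 of 7 without SOCS3. None was lower in edgeR, beside 20.1%, with 0 at an unadjusted p under 0.05, and 1 IRAK1 region was in DESeq2.

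The IP libraries of CCL22 had 23.9, 23.0 and 17.0 CPM in NC and 90.2, 87.6 and 89.4 CPM in KD. This peak was called in the KD set alone. The groups were far apart and the KD libraries nearly equal. The difference was 2.05 ± 0.23 log2 (edgeR adjusted p = 8.2e-08; interval 1.58 to 2.53), against 1.82 in input. For the 91-base NFKB2 region, NC IP had 91.8, 78.4 and 89.4 CPM and KD IP 127, 116 and 125 CPM, without overlap. KD was higher by 0.50 ± 0.18 log2 (adjusted p = 0.028). The call was lost without NC IP replicate 2 (adjusted p = 0.11) or 3 (0.058), without KD IP replicate 1 (0.080) or 3 (0.065), and in DESeq2 (0.068). The 890-base region, with 123, 97.7 and 83.7 CPM in NC IP and 138, 123.5 and 142 CPM in KD IP, differed by 0.40 ± 0.17 log2 (adjusted p = 0.065), and the 771-base region by 0.24 ± 0.20 (0.38). The 890-base region passed without NC IN replicate 1 (adjusted p = 0.046) or NC IP replicate 1 (0.024).

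The 91-base SOCS3 region had 7, 9 and 5 reads in NC IP and 28, 30 and 26 in KD IP. No library of one group reached the other. The region was called as a peak in the KD set alone and passed the filter on low counts mainly through KD IP. Its excess in KD IP is therefore a description. The difference was 1.86 ± 0.69 log2 (edgeR adjusted p = 0.032), and it was lost without any one of the 6 IP libraries: without NC IP replicates 1, 2 and 3 the adjusted p was 0.10, 0.059 and 0.12, and without KD IP replicates 1, 2 and 3 it was 0.074, 0.078 and 0.076. The 210-base region had 2, 4 and 13 reads in NC IP and 9, 13 and 20 in KD IP, and its 1.01 ± 0.80 log2 did not pass (adjusted p = 0.34). The IRAK1 regions gave -0.26 ± 0.15 (adjusted p = 0.19) and -0.28 ± 0.15 (0.15). The second, the 362-base region with 144, 149 and 154 CPM in NC IP and 145, 103 and 120 CPM in KD IP, passed in DESeq2 (-0.37; adjusted p = 0.047). CCL5, with 21.2, 19.3 and 28.9 CPM in NC IP and 18.1, 16.9 and 8.69 CPM in KD IP, gave -0.65 ± 0.42 (adjusted p = 0.24).

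**Figure D3:**
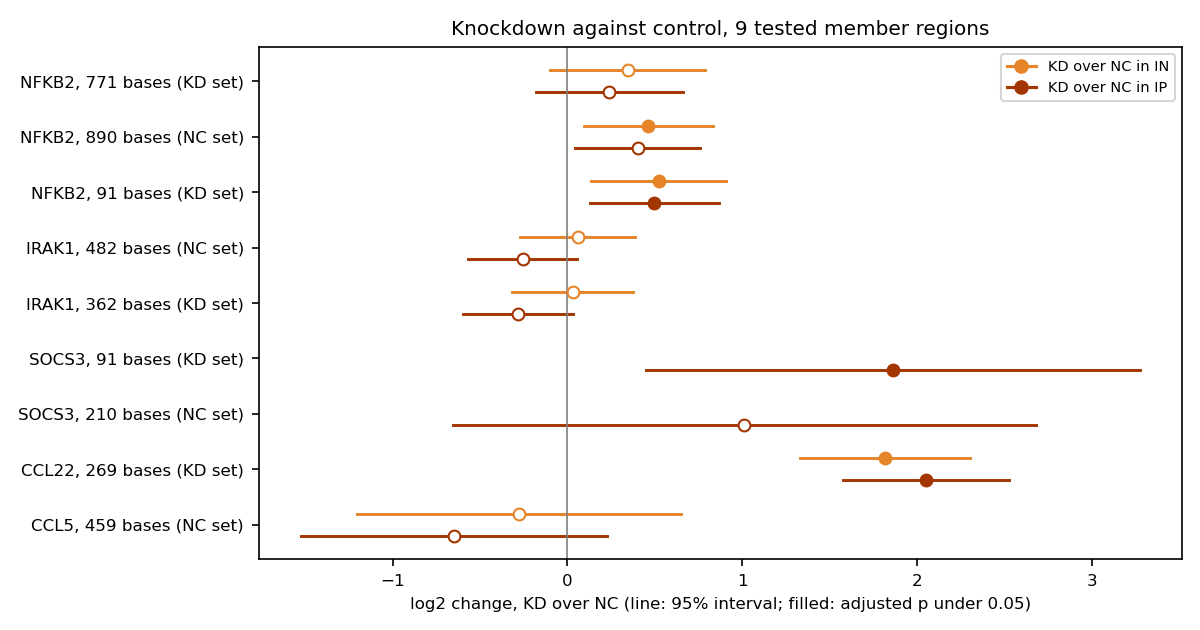
Log2 change of KD over NC in input (orange) and in the immunoprecipitate (dark red) for the 9 tested member regions, with 95% intervals, filled where the adjusted p was under 0.05. The SOCS3 regions are shown for IP alone, since NC IN held 3 and 0 reads there. The CCL22 values of 1.82 and 2.05 lie farthest from 0 among those with input values, and both IRAK1 intervals include 0 in each comparison.

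Setting IP against IN asked whether a region was recovered with the m7G antibody beyond the average peak region. All members lie in called peaks. Like most of all tested regions, most tested member regions did not pass as higher in IP than in IN on this relative scale. CCL22 and the 890-base NFKB2 region were lower in IP in both conditions, and IRAK1 passed in neither. The 210-base SOCS3 region was higher in NC, the condition in which its peak was called. In NC, 1 of the 9 tested regions passed as higher, beside 22.7% of all tested regions, and 2 as lower, beside 24.0%. The higher one was the SOCS3 region, so without SOCS3 it was 0 of 7 higher in edgeR, with 1 at an unadjusted p under 0.05 and 1 in DESeq2, the 362-base IRAK1 region in both, and 2 of 7 lower. In KD, 4 passed as lower, beside 21.4%, none of them in SOCS3 and so 4 of 7 without it. The 4 were CCL22 and the 3 NFKB2 regions. The 890-base NFKB2 region shares reads with both others of that gene, so the 4 are not independent. None was higher in KD in edgeR, beside 23.5%, with 1 at an unadjusted p under 0.05 and 1 in DESeq2, the 91-base SOCS3 region. These comparisons share libraries with those of KD against NC.

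The scaling matters here. With library size alone in place of TMM, the median of all tested regions moved from 0.13 to 0.42 log2 in NC and from 0.23 to 0.40 in KD, and the share of calls that were higher from 48.6% to 67.2% and from 52.3% to 63.6%. Values of IP over IN are therefore relative to that median.

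The 890-base NFKB2 region gave -0.53 ± 0.18 log2 in NC (edgeR adjusted p = 0.018) and -0.59 ± 0.17 in KD (0.0069). From the levels given above, the NC groups overlapped in 1 pair of libraries and the KD groups did not overlap. The NC call was lost with library size alone (-0.23; adjusted p = 0.31), with no filter (-0.36; 0.12), with 1 region per cluster of overlapping peaks (-0.37; 0.099), and without NC IN replicate 1 (-0.32; 0.18), NC IP replicate 2 (0.056) or NC IP replicate 3 (0.095). The KD call was lost with library size alone (-0.42; adjusted p = 0.059). The 91-base region gave -0.42 ± 0.19 in NC (adjusted p = 0.071) and -0.44 ± 0.18 in KD (0.045), and the 771-base region -0.40 ± 0.21 in NC (0.13) and -0.50 ± 0.20 in KD (0.048), so that both passed in KD at values near those in NC. In NC the 91-base region passed without NC IN replicate 3 (-0.65; adjusted p = 0.0041). The 91-base call in KD was lost without any one of KD IN replicates 1 and 2 and of the KD IP and NC IP libraries (adjusted p from 0.052 to 0.14). The 771-base call was lost without any one of KD IN replicates 1 and 2, the KD IP libraries and NC IP replicate 2 (0.058 to 0.16). With library size alone the adjusted p was 0.22 and 0.20, and with no filter 0.16 and 0.14.

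CCL22 gave -0.78 ± 0.26 log2 in NC (adjusted p = 0.019) and -0.54 ± 0.20 in KD (0.033). All IP libraries of a condition lay below all its IN libraries. The NC call was lost without NC IN replicate 2, the highest input library (-0.42; adjusted p = 0.24), without NC IP replicate 3 (0.075), with library size alone (-0.48; 0.15), with no filter (-0.61; 0.094) and with 1 region per cluster (-0.62; 0.064). The KD call was lost without KD IN replicate 3 (adjusted p = 0.15), without KD IP replicate 1 (0.075), 2 (0.089) or 3 (0.069), with library size alone (-0.37; 0.14), with no filter (-0.43; 0.13) and with 1 region per cluster (-0.51; 0.053). CCL5 gave -0.27 ± 0.43 in NC (adjusted p = 0.63) and -0.64 ± 0.44 in KD (0.24), neither passing.

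The 362-base IRAK1 region had 106, 125 and 117 CPM in NC IN and 144, 149 and 154 CPM in NC IP. IP was above IN in every library, by 0.37 ± 0.16 log2, just short of the threshold (adjusted p = 0.065). It passed in DESeq2 (adjusted p = 0.025), with library size alone (0.66; 0.0017), with no filter (0.54; 0.018), with at least 50 reads (0.42; 0.040) and without NC IN replicate 2 (0.036) or KD IN replicate 2 (0.0498). In KD the same region gave 0.05 ± 0.16 (adjusted p = 0.81), with IP and IN overlapping. The 482-base region gave -0.04 ± 0.16 in NC (adjusted p = 0.83), which became 0.25 with library size alone, and -0.36 ± 0.15 in KD (0.062). The KD value passed in DESeq2 (adjusted p = 0.040), with a filter of at least 50 reads (0.035), and without NC IN replicate 1 (0.048), NC IN replicate 2 (0.024) or KD IP replicate 1 (0.033).

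For SOCS3, the 210-base region rose from 0 reads in NC IN to 19 in NC IP, at least 3.26-fold higher with a floor of 3 counts (adjusted p = 0.034). NC IP replicate 3 held 13 of the 19 reads, and without it the bound was 1.496 and the call was lost (adjusted p = 0.14). The bound was 2.07, 2.27 and 2.18 without NC IN replicates 1, 2 and 3, with adjusted p of 0.083, 0.069 and 0.080, and 4.63 and 3.76 without NC IP replicates 1 and 2. In KD it gave -0.71 ± 0.75 (adjusted p = 0.45). The 91-base region gave 84 reads in KD IP against 13 in KD IN, or 1.79 ± 0.73 log2 at the threshold (adjusted p = 0.050), and passed in DESeq2 (0.042), with library size alone (0.033), with no filter (0.033) and without KD IN replicate 1 (2.88; 0.014). It also passed without any one of NC IN replicates 1, 2 and 3 (0.039, 0.047 and 0.035). In NC it had 21 reads against 3, a ratio of 3.60 with a counting interval of 1.07 to 18.8 (adjusted p = 0.18). Without NC IN replicate 3 it passed (adjusted p = 0.033). The 210-base region is listed because it was called as a peak in NC, and the 91-base region because it was called in KD. The IP excess of each region in that condition follows at least in part from this choice and is a description.

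**Figure D4:**
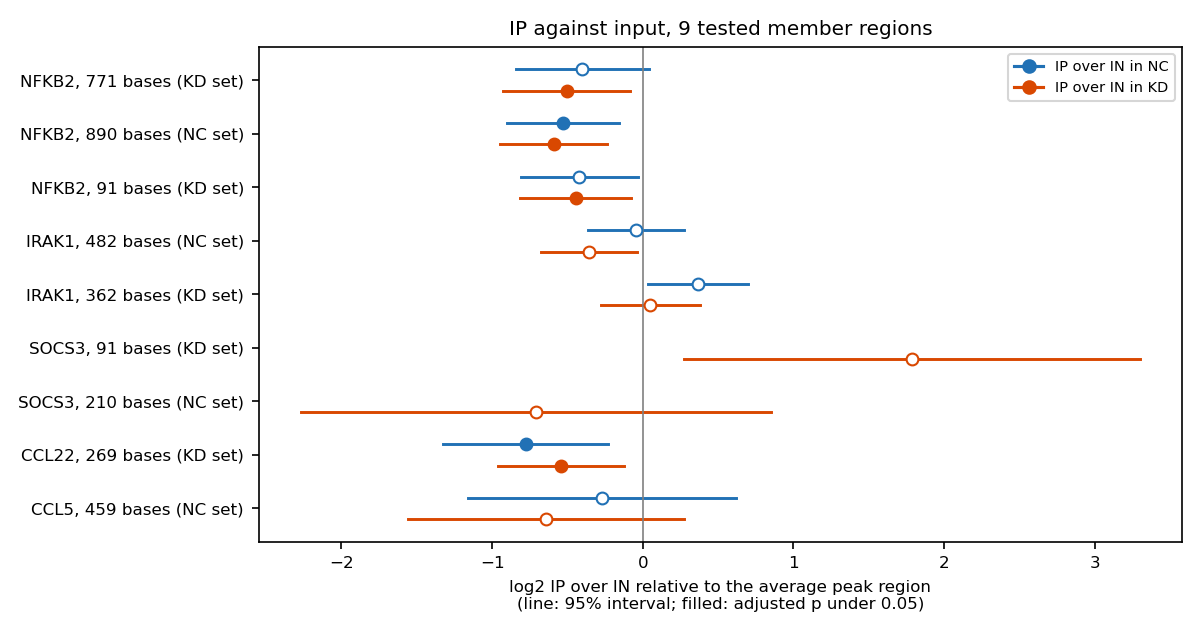
Log2 of IP over IN in control (blue) and knockdown (orange) for the 9 tested member regions, with 95% intervals, filled where the adjusted p was under 0.05 and relative to the average peak region. The SOCS3 regions are shown for KD alone, since NC IN held 3 and 0 reads. NFKB2 and CCL22 lie below 0 in both conditions, from -0.40 to -0.78.

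The 2 smaller CCL22 peaks held too few reads for the model, 16 and 9 over all 12 libraries. The 121-base KD peak had 5, 5 and 4 reads in the KD IP libraries, 0 in each KD IN library, and 1 in NC IP and 1 in NC IN. All KD IP libraries were thus above all others. KD IP was at least 2.51-fold higher than KD IN, and its ratio to NC IP was 12.9 with a counting interval of 1.97 to 547 (exact permutation test of CPM, two-sided, p = 0.1 for each, the smallest that 3 against 3 can give). The 181-base NC peak had 3, 4 and 0 reads in NC IP, 0 in NC IN, 1, 0 and 1 in KD IN and 0 in KD IP. NC IP was at least 1.20-fold above NC IN and KD IP at least 2.52-fold below NC IP (exact permutation p = 0.4 for both). Unlike the 269-base region, these peaks were read almost only in an IP group. Each is listed because it was called as a peak in that condition. Its excess in that IP group therefore follows at least in part from this choice and is a description.

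The last comparison asked whether enrichment itself differed, as IP over IN in KD against IP over IN in NC. No member passed in edgeR, nor did any of the 5113 regions (0.0%), with 610 at an unadjusted p under 0.05 and 21 in DESeq2, 0 of them members. The smallest adjusted p in edgeR was 0.12. For CCL22 the change was 0.24 ± 0.33 log2 (adjusted p = 0.83; interval -0.45 to 0.92), while its level differed by 1.82 in input and 2.05 in IP. The NFKB2 changes were -0.06 ± 0.25, -0.02 ± 0.26 and -0.10 ± 0.30 in the 890-, 91- and 771-base regions, with an interval of -0.57 to 0.45 in the first. The IRAK1 regions both gave -0.31, with standard errors of 0.22 and 0.23 and intervals of -0.77 to 0.14 and -0.78 to 0.15 in the 482- and 362-base regions. CCL5 gave -0.37 ± 0.62. The 91-base SOCS3 region gave 0.02 ± 0.66, with a control input of 3 reads, and for the 210-base region the change could not be measured, since NC IN was at 0. It was the 1 member with an unadjusted p under 0.05 (adjusted p = 0.29).

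The other genes of these pathways were described from 4 lists. Of 73 genes of NF-kB and of Toll-like and interleukin-1 receptor signalling, 23 had a region and 10 were tested, in 17 regions. In input 7 regions were higher in KD and 3 lower, with a median of 0.52 log2 against -0.01 over all tested regions. Without the members, 12 regions remained, 5 higher and 3 lower. TAB1, an adaptor of the kinase TAK1, fell from 30.9 ± 1.70 CPM (SD, n = 3) in NC IN to 5.41 ± 1.48 CPM in KD IN (-2.49 ± 0.49 log2; edgeR adjusted p = 2.1e-04). TRAF5, an adaptor of tumour necrosis factor receptors, had 40 reads in NC IN and 1 in KD IN (adjusted p = 2.1e-04). CARD9, an adaptor of fungal pattern receptors, rose from 4.35 ± 2.12 to 16.4 ± 4.12 CPM (1.92 ± 0.65; adjusted p = 0.020) but was lost without NC IN replicate 1 or KD IN replicate 3, with an adjusted p of up to 0.080. The TAB1, TRAF5 and CARD9 regions passed the filter on low counts mainly through the groups in which they are high, so their calls are a description. Of the 17 regions of the list, 6 lay in more than 1 gene, and CARD9, TRAF1, NFKB2 and IRAK1 gave several regions each.

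In IP over IN, 1 region of that list was higher and 3 lower in NC (median -0.40 log2, against 0.13 over all tested regions), and 1 was higher and 4 lower in KD (median -0.36, against 0.23). The lower ones in KD were the 3 NFKB2 regions and a region inside TRAF1 and PHF19. That region had -1.53 ± 0.37 in NC (adjusted p = 0.0016) and -0.89 ± 0.32 in KD (0.025), the latter lost when replicate 1 of KD IN or replicate 1 or 2 of KD IP was left out (adjusted p up to 0.18). The higher one lay inside COMMD1, an inhibitor of NF-kB, and CCT4, at 1.57 ± 0.41 in NC (adjusted p = 0.0030) and 1.14 ± 0.44 in KD (0.038). The KD call was lost without NC IP replicate 3, KD IN replicate 2, KD IP replicate 2 or KD IP replicate 3 (adjusted p up to 0.20).

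Of 43 genes of JAK, STAT and SOCS signalling, 17 had a region and 7 were tested, in 12 regions. In input 5 were higher in KD and 0 lower, with a median of 0.81 log2, which was the same with SOCS3 set at its bound. Without the members, 4 of 10 were higher, with a median of 0.57. Of the 5, 3 lay in IL4R and 1 in SOCS3. STAT6, which acts behind the interleukin-4 receptor, rose from 7.22 ± 5.45 CPM in NC IN to 43.6 ± 14.2 CPM in KD IN (2.62 ± 0.56; edgeR adjusted p = 5.0e-04). IL4R, a chain of that receptor, rose from 18.8 ± 6.54 to 58.9 ± 15.1 CPM in its strongest region (1.63 ± 0.36; adjusted p = 6.8e-04). PIAS2, an inhibitor of STAT proteins, was at 16.1 ± 11.3 and 10.5 ± 4.11 CPM and did not pass (adjusted p = 0.40). In IP over IN, 3 regions were higher and 1 lower in NC, and 2 higher and 0 lower in KD. The lower one, in IFNAR2, a chain of the type I interferon receptor, and the readthrough IFNAR2-IL10RB, had -0.97 ± 0.21 log2 in NC (adjusted p = 3.9e-04). PIAS4, another PIAS family member, was higher by 3.05 ± 0.68 in NC (adjusted p = 7.0e-04) and 3.26 ± 0.77 in KD (0.0013), from 7 and 4 input reads. PIAS4 had a peak of each set, with the same input reads in each group. These peaks made up all the higher regions in KD, and those in NC apart from a SOCS3 region. The counts of higher regions therefore take the PIAS4 input reads more than once, and its regions are not independent. The PIAS4 value in KD ranged from 2.71 to 7.23 when single libraries were left out. The STAT6 and PIAS4 regions passed the filter on low counts mainly through the groups in which they are high, so their calls are a description.

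Of 55 chemokines and receptors 5 had a region, and only CCL22 and CCL5 were tested. The macrophage markers, by comparison, had 12 of 16 regions higher in KD IN and 0 lower, beside 17.9% and 21.9% of all tested regions. The 16 regions came from 7 genes, and several overlap and share reads.

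**Figure D5:**
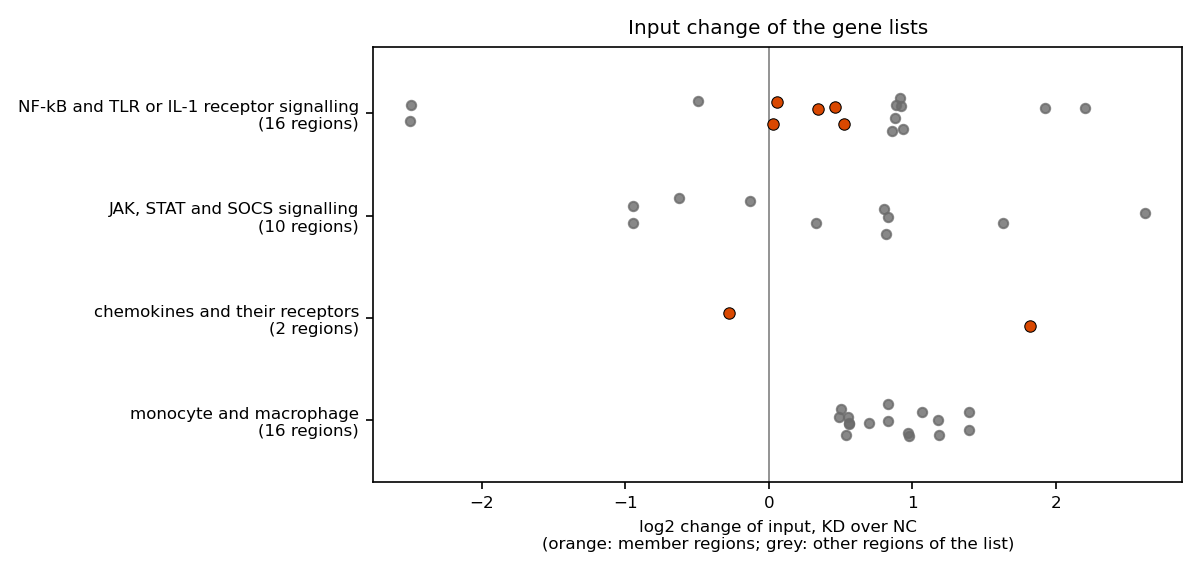
Log2 change of KD over NC in input for each tested region of 3 pathway lists and of the macrophage markers, with the member regions in orange, other regions in grey and points spread vertically for view. Regions with 3 or fewer reads in either input group (TRAF5 and both SOCS3 regions) are left out. CCL22 at 1.82 lies to the right of all 16 marker regions, and the IRAK1 and NFKB2 points lie between 0.03 and 0.52.

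The regions of other genes whose log2 CPM ran most like a member's over the 12 libraries were found by Pearson's r, given as a description. For CCL22 they were TGFB1 (r = 0.98), CCND1 (0.97) and PALM2AKAP2 (0.97), and for NFKB2 CANX (0.96), PCNT (0.92) and LRRC41 (0.92). IRAK1 was most like BAZ1B (0.83), PSMA5 (0.81) and a region in SP110 and SP140 (0.80). The 91-base SOCS3 region was most like a region in EFCAB13 (0.92), MED13L (0.91) and RHOBTB2 (0.89), and CCL5 like DNAJB6 (0.89), HNRNPM (0.79) and C3orf62 (0.77). Each was the best of 5072 to 5074 regions, and the 12 points share 4 groups and the depth of each library.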

How the data were processed

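The authors deposited 1 table of peaks with raw read counts per region and library, named for the condition in which each peak was called. Per the submitters' processing notes, fastp 0.23.4 trimmed the reads and GRCh38 was the build. The aligner, peak caller and counter are not given in the sources used here. The table also holds the authors' fold enrichment as a ratio, a score equal to it, p-values, and a log2 difference of enrichment, all as deposited by the authors and used only as description.

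Regions were matched to genes by position, whatever the strand. The test was edgeR 4.0.16 (R 4.3.3) on the counts: filterByExpr (minimum count 10, minimum total 15) kept 5113 regions, TMM scaling, quasi-likelihood test on 4 group means of 3 libraries, Benjamini-Hochberg adjustment over all 5113, threshold 0.05, two-sided. Adjusted p-values are edgeR's unless DESeq2 (1.42.0) is named. Groups came from the library titles. The fit was also run on simulated data, which does not measure its error rate in these data. Members, lists and alternatives were chosen with earlier results of these data known, and the promoter motifs after values were seen. Named list genes are the 4 with the smallest p per list in input and in IP over IN (some are not reported here), and likeness takes the 3 highest r.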

Additional observations from a re-analysis of the deposited data

How the results depend on the processing

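Of 917 recomputed values for the 45 member results, 779 kept their direction and side of the threshold, 71 lost and 31 gained a call, and 36 changed sign. The input and IP calls of CCL22 for KD against NC held in every alternative in which the region was tested. Ranked by fold in the authors' deposited table, it is not in the upper 50% of its set.

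With only the upper 50% kept, calls over all regions numbered 644 (KD against NC in IN), 446 (in IP), 588 (IP over IN in NC), 523 (in KD) and 48 (change in enrichment), and called members 1, 0, 0 and 0 in the first 4. With 1 region per cluster of overlapping peaks, calls numbered 1481 for IP over IN in NC and 1376 in KD, with 1 member in each. Fewer regions are tested in both settings. For IP over IN in KD, library size alone gave 1 called member, the 91-base SOCS3 region as higher, with all 4 lower calls lost, and no filter gave 2, that region and the 890-base NFKB2 region. At a threshold of 0.01, called members numbered 2 (IN), 1 (IP), 0 (IP over IN in NC) and 1 (in KD), and at 0.10 there were 5 for IP over IN in NC. The change in enrichment had 21 calls in DESeq2 and 45 with no filter, against 0.

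Deviations of same-numbered libraries correlated weakly (r from -0.088 to 0.068 between the groups compared). Between KD IN and KD IP, same numbers gave 0.048 to 0.063 and unlike numbers -0.053 to -0.00044. Between NC IN and NC IP they gave -0.019 to 0.068 and -0.064 to 0.045. With 3 libraries per group these values cannot decide whether the numbers pair the samples. With a replicate block of IP and IN pairs the change in enrichment had 16 calls, 0 of them members. With the replicate number as a block, the 91-base SOCS3 region lost its IP call (adjusted p = 0.061) and the 890-base NFKB2 region gained one (0.039). In the block of pairs the 482-base IRAK1 region gained a call for IP over IN in KD (0.044).

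Leaving out each library in turn gave 1806 to 2013 calls in IN (2 to 4 members), 1715 to 2196 in IP (1 to 4), 1967 to 2498 for IP over IN in NC (0 to 4), 1953 to 2417 in KD (1 to 6), and 0 to 1 for the change in enrichment (0 to 0). Results near 0 changed sign, none of them called. In input, IRAK1 ranged from -0.073 to 0.23 (482 bases; -0.073 and -0.013 without replicate 1 of NC and KD) and from -0.032 to 0.15 (362 bases; -0.032 and -0.016), and CCL5 from -0.69 to 0.39. For IP over IN in NC, the 482-base IRAK1 region became 0.25 with library size alone, 0.021 in DESeq2, 0.13 with no filter, 0.0073 with at least 50 reads, 0.12 with 1 region per cluster and 0.12 without NC IN replicate 2 (range -0.18 to 0.12). CCL5 became 0.026 with library size alone and ranged from -0.68 to 0.39. In KD, the 362-base IRAK1 region ranged from -0.087 to 0.16 (-0.011, -0.021 and -0.087). For the change in enrichment, NFKB2 ranged from -0.32 to 0.086 (771 bases), -0.27 to 0.10 (890 bases; also 0.067) and -0.22 to 0.20 (91 bases; also 0.022, 0.049 and 0.017), CCL22 from -0.18 to 0.42 and CCL5 from -1.09 to 0.039. The 91-base SOCS3 region became -0.082 with library size alone, -0.13 in DESeq2, -0.024 with no filter, -0.077 with at least 50 reads and -0.097 with 1 region per cluster. Leaving out libraries it ranged from -3.77 to 1.10 (also -0.056, -0.13, -0.11, -0.53 and -0.017). The cause of these shifts was not tested.

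Requiring the whole peak inside the gene body leaves 10 of the 11 regions, without CCL5. Reads in peak regions and 3 libraries per group limit the precision most in SOCS3, the smaller CCL22 peaks and CCL5.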

Other observations

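Of 33 interferon regulatory factors and response genes, a branch of innate signalling beside that of the members, 12 had a region and 8 were tested, in 14 regions, 6 of which lay in more than 1 gene. IRF3, BST2 and IRF2BP2 had peaks of both sets with the same or nearly the same input reads. The counts and medians of this list therefore take some reads more than once, and its regions are not independent. For IP over IN, 7 were higher and 1 lower in NC (median 0.70 log2, against 0.13 over all tested regions) and 6 were higher and 2 lower in KD (median 0.35, against 0.23). A region across the ends of IRF3, the transcription factor of type I interferon induction, and BCL2L12 was higher by 1.83 ± 0.14 log2 in NC (edgeR adjusted p = 3.0e-10) and 1.78 ± 0.14 in KD (5.2e-10). IRF2BP2, a corepressor, was higher by 0.80 ± 0.20 (adjusted p = 0.0019) and 0.61 ± 0.20 (0.013). The latter call was lost without KD IP replicate 1 (adjusted p = 0.076). A region inside IFIT3, an interferon-induced antiviral gene, and LIPA was lower by -0.91 ± 0.15 (adjusted p = 2.3e-05) and -1.17 ± 0.15 (1.0e-06). A region inside IFITM3, another such gene, and IFITM3-AS1 was lower in KD by -1.74 ± 0.39 (adjusted p = 8.5e-04), and TRIM25, a ubiquitin ligase, was higher in NC by 1.84 ± 0.71 (0.036). Leaving out NC IP replicate 1, NC IP replicate 2, NC IN replicate 1 or NC IN replicate 3 ended the TRIM25 call (adjusted p up to 0.15). The TRIM25 region passed the filter on low counts mainly through the IP libraries, so its call is a description.

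For KD against NC, 3 regions of that list were higher and 1 lower in input (median 0.06 log2, against -0.01 over all tested regions), and 0 were higher and 6 lower in IP (median -0.28, against 0.05). In input IRF9, a subunit of the factor that answers type I interferon, rose from 23.5 ± 8.61 to 49.0 ± 3.70 CPM (1.05 ± 0.31 log2; adjusted p = 0.0081). MAVS, the adaptor of RNA sensors, fell from 37.2 ± 7.23 to 16.2 ± 6.75 CPM (-1.20 ± 0.37; adjusted p = 0.012) but was lost without NC IN replicate 2 or KD IN replicate 2 (adjusted p up to 0.061). The IFITM3 region rose by 1.08 ± 0.40 in input (adjusted p = 0.036), and was lost without NC IN replicate 1 or 3 or KD IN replicate 1 or 2 (adjusted p up to 0.11).

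In the authors' deposited table, the fold enrichment of the member peaks was 1.49 to 3.16 in NFKB2, 4.33 and 5.86 in IRAK1, 5.4 and 19.6 in SOCS3, 1.65 to 18.5 in CCL22 and 4.91 in CCL5. None of the 78 changes in enrichment called in the authors' deposited table at an adjusted p under 0.05 was a member. Its lowest adjusted p among members was that of the 210-base SOCS3 region (log2 change -10.67, adjusted p = 0.098), where NC IN held 0 reads.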
